A study of Drosophila melanogaster and Drosophila simulans and Drosophila yakuba with 4 samples.

Results

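The white prepupa library of Drosophila yakuba held 15342 genes, each with 1 row in the deposited table, and all 15342 rows were used. The 4 tables of the series, from D. yakuba, D. melanogaster, D. simulans and D. pseudoobscura, hold 60414 rows. Each library was made from RNA of whole animals at the start of pupariation, and there is 1 library per species, so no test between species was possible and no p-value is given. The sources used here do not give the strain, sex or treatment of the animals, how many were pooled, or the build of the D. yakuba genome. Tissues of whole animals were not separated, so fewer cells of a type and less RNA per cell cannot be told apart.

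The sample's title names D. yakuba and its organism field names D. melanogaster, and the title was followed. None of its identifiers, 0 of 15342, was in the D. melanogaster gene table, against 14872 of 15492 under the D. melanogaster title. Genes on arm 3R reached position 28822140 in the D. yakuba table and 27894163 in the D. melanogaster table. The files do not pair the D. yakuba identifiers with names or gene types, so the genes are given here by their position, and the stage could not be checked against marker genes.

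White prepupae are animals that have just stopped moving and begun to form the puparium under a pulse of the steroid hormone ecdysone. At this stage larval salivary glands, fat body and gut stand beside imaginal discs that will build the adult, and in D. melanogaster a few secreted protein genes, several of them in tandem clusters, are among the most active in the animal. These flies carry large autosomes, an X, a Y and a very small dot chromosome, written 4 in the table. The dot chromosome is rich in repeats, and in D. melanogaster its genes are bound by a protein called POF.

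Expression was spread over a wide range, with most genes low and a small group very high. The unit is FPKM, in which the reads of a gene are divided by the length of its transcript in kilobases and by the depth of the library. The median FPKM was 5.21, with the middle 50% of genes between 0.693 and 23.99, a range of 34.6-fold. At FPKM 0 stood 2180 genes (14.2%), and 2138 genes lay above 0 and below 1. At FPKM 1 or more stood 11024 genes (71.9%), of which 5152 lay below 10, 4297 from 10 to below 100, 1335 from 100 to below 1000, and 240 at 1000 or more (1.56%).

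The FPKM range was wider than in the other libraries by this measure, which gave 28.8-fold for D. melanogaster, 29.8-fold for D. simulans and 19.1-fold for D. pseudoobscura. The medians of these libraries were also higher, at 6.91, 9.40 and 9.63. At FPKM 10 or more stood 38.3% of D. yakuba genes. The class from 10 to below 100 held 28.0% of D. yakuba genes, against 34.0% for D. melanogaster, 38.2% for D. simulans and 40.6% for D. pseudoobscura. The 99th percentile of D. yakuba was 1814, and the 3 others had 1138, 1719 and 1159 in the same order. At 1000 or more stood 1.56% of D. yakuba genes, 1.1% of D. melanogaster, 1.59% of D. simulans and 1.17% of D. pseudoobscura genes. At 1 or more stood 71.9% in D. yakuba and 74.6%, 75.8% and 78.5% in the others. Over all rows, low and very high values were thus more common in D. yakuba than in D. melanogaster and D. pseudoobscura. The top of D. simulans was close to that of D. yakuba. Among loci of 500 bp or more, the order at FPKM 1000 or more did not hold. D. yakuba had 0.872% of such loci there, D. melanogaster 1.13%, D. simulans 1.01% and D. pseudoobscura 0.884%. FPKM was scaled by the authors within each library, and with 1 library per species a species and a library cannot be told apart.

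**Figure D1:**
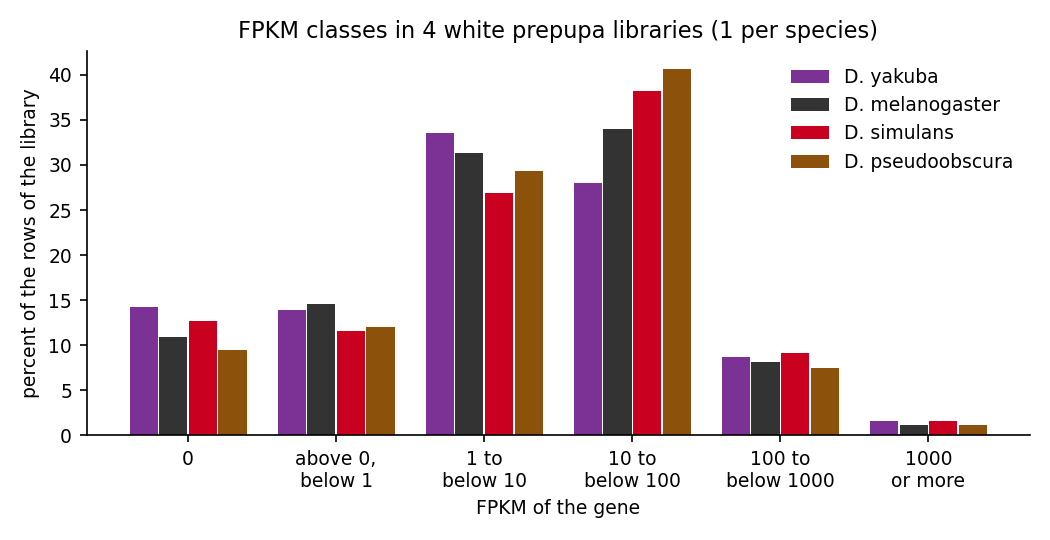
Percent of the rows of each library (vertical axis) in 6 classes of FPKM (horizontal axis), with 1 bar for each of the 4 species. D. yakuba has the highest percent at FPKM 0 (14.2%) and the lowest from 10 to below 100 (28.0%).

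The depth behind these values was read from the Cufflinks bounds, whose distance from the FPKM was taken to be 2 standard errors of a Poisson count of reads. Solved for reads, they were whole within 0.05 reads for 99.8% of D. yakuba genes with fewer than 300 reads. The same share was 69.3% for D. melanogaster, so values that rest on its solved reads are less firm, and it was 99.8% for D. simulans and 97.6% for D. pseudoobscura. The implied total was 5811708 reads, the smallest of the 4 libraries, and the median gene had 64.5 reads. Among genes at FPKM 1 or more the upper bound lay a median of 17.3% above the FPKM. Bounds of FPKM and intervals of read shares given here cover counting error only.

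Because the depth was the lowest, shares at FPKM 0 were also compared at matched depth. At the depth of D. yakuba, a thinning of reads would be expected to leave 13.4% of D. melanogaster, 14.7% of D. simulans and 12.1% of D. pseudoobscura genes at 0, in place of the 10.9%, 12.6% and 9.47% observed. Only the total of reads was matched here, not how the reads were spread over genes. Expected shares cover rows of status OK, and observed shares cover all rows. Among genes with a locus of 500 bp or more, 8.45% were at 0 in D. yakuba, and 8.49%, 9.16% and 6.63% would be expected at its depth in the 3 other libraries in the same order. On this scale D. yakuba lay inside the range of the 3 other libraries. Whether depth accounts for its share at 0 was not tested. With 1 library per species, depth, species and annotation cannot be told apart.

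A gene at FPKM 0 was most often a short one. Of the 427 genes with a locus span of 100 bp or less, 381 were at 0 (89.2%), and the percent fell with span, from 53.8% at 101 to 200 bp and 40.8% at 201 to 300 bp to 9.29% at 1001 to 1500 bp and 4.91% above 10000 bp. The median span was 489.5 bp for genes at 0 and 1634.5 bp for the others. Under 500 bp lay 1104 of the 2180 genes at 0. The span is that of the locus, introns included. The table gives no gene types, so how many of the short genes are small noncoding RNAs is not known.

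The same short genes had a coarse scale of FPKM. A gene with 1 implied read had a median FPKM of 83.8 where the locus was 100 bp or less (17 genes), 1.66 at 201 to 300 bp (47 genes) and 0.120 at 1001 to 1500 bp (101 genes). A single read was thus worth 699 times as much in the shortest class as at 1001 to 1500 bp. Cufflinks divides by an effective length that is shorter than the transcript, which weighs most on short transcripts, and its part in this ratio was not tested. Genes with 3 reads, the number that a count of 0 still allows, had a median FPKM of 140.9 in the shortest class and 0.336 at 1001 to 1500 bp, so a 0 in a very short gene sets almost no limit on its level. Of the 666 genes with 1 read, 149 stood at FPKM 1 or more and 4 at 100 or more.

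**Figure D2:**
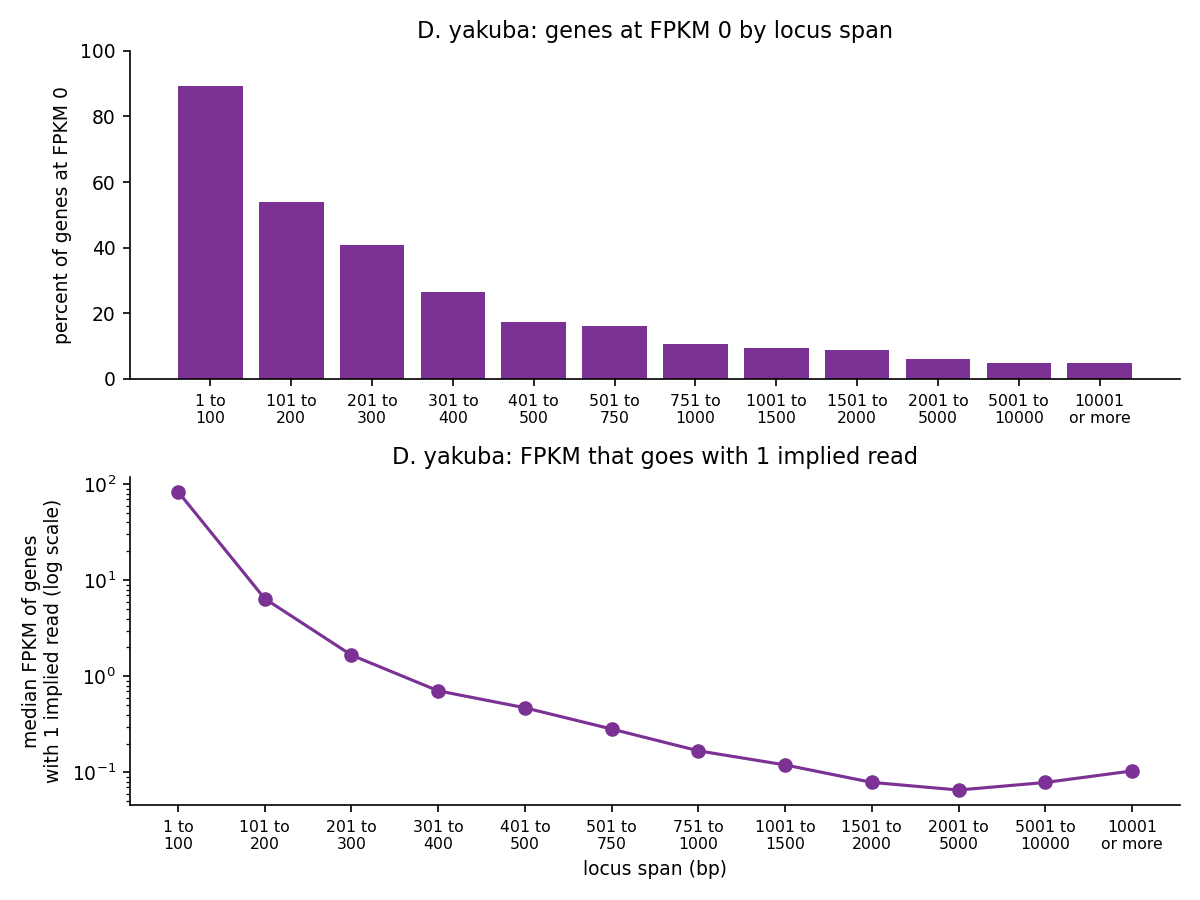
For D. yakuba genes grouped by locus span in bp (horizontal axis), the upper panel shows the percent at FPKM 0 and the lower panel the median FPKM of genes with 1 implied read, on a log scale. The percent at 0 falls from 89.2% in the shortest class to 4.91% in the longest, and the FPKM of 1 read falls from 83.8 to a lowest value of 0.0657 at 2001 to 5000 bp.

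The 240 genes at FPKM 1000 or more were few, short and deeply sampled. They held 37.7% of all implied reads and 71.1% of the summed FPKM. Of these genes 100 lay below 2000, 76 from 2000 to below 5000, 37 from 5000 to below 10000 and 27 at 10000 or more. Their median locus span was 480.0 bp, against 1463 bp over all genes, and 129 of them (53.8%) were under 500 bp, against 17.0% of all genes. The threshold itself favors short loci and many reads. Among detected genes the FPKM per implied read per kilobase of locus had a median of 0.441 at 201 to 300 bp and 0.127 at 1001 to 1500 bp. The median gene of the group had 3940 reads, and the upper bound lay a median of 3.19% above the FPKM.

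Only 2 of the 240 rested on fewer than 100 reads, each with a span of 79 bp. On 3L from 20108017 to 20108095 a gene had an FPKM of 1189 from 19 reads, with bounds of 643.7 and 1735, and on 2L from 6164935 to 6165013 a gene had an FPKM of 2768 from 38 reads, with bounds of 1870 and 3667. The second lies within another locus. At the other end, 26 of the 240 had a locus of 2000 bp or more, the longest of 13983 bp on 2R from 8788203 to 8802185 at an FPKM of 1563. Loci that overlap another gene made up 24 of the 240 (10%), near the 8.76% over all genes. Overlap is by locus, introns included, so such genes need not share exons. Where they do, how their reads were divided cannot be checked, since no source used here gives the strand.

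The threshold of 1000 cut through a continuous range. Just inside it lay genes at 1013 (2R, 15142720 to 15143626, 2038 reads) and 1000.3 (3R, 3216083 to 3216375, 464.0 reads). Just outside lay genes at 992.0 (3L, 7560555 to 7560722, 194.0 reads) and 987.5 (3L, 1158800 to 1159228, 2271 reads). Their bounds overlapped, from 849.6 and 1134.5 for the gene at 992.0 to 907.5 and 1093 for the gene at 1000.3. Lowering the threshold to 500 gave 434 genes and raising it to 2000 gave 140.

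The highest FPKM belonged to very short loci. Of the 10 highest genes 9 had a span under 500 bp, from 198 to 456 bp, and the remaining locus was 648 bp long. FBgn0068266, on 2L from 8467859 to 8468068, led with an FPKM of 66804 (bounds of 65991 and 67617) from 27014 reads. The gene on 3R from 9656011 to 9656393 followed at 64864 (62827 and 66901), but from only 4056 reads. The 2 sets of bounds overlapped, so their order is within counting error.

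Next came a gene on 2R from 19928335 to 19928790 at an FPKM of 60491, and one on 2R from 13892152 to 13892454 at 60218. Their bounds also overlapped, while their reads were far apart, at 8253 and 36251. The fifth and sixth places were on 3L, at 14325781 to 14326182 with an FPKM of 50915 and at 18191628 to 18192051 with 49586, each of them part of a run of high genes described further on.

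The remaining 4 of the 10 stood at FPKM 38309 (3L, 18192424 to 18192834), 32951 (3R, 9650074 to 9650721), 32699 (X, 18042355 to 18042552) and 25951 (3L, 3863535 to 3863744). The second of these overlaps another locus. It lies 5289 bp before the gene at 64864 on the same arm. Thus 2 of the 8 highest genes are close together on 3R, though not next to each other in order.

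Among these 10 genes, 3 had a high FPKM for their reads. The FPKM per implied read per kilobase of locus, compared with the median of genes in the same class of span, was 23.9 times that median for the gene of 64864 on 3R, 17.1 times for the gene of 60491 on 2R and 18.9 times for the gene of 32951 on 3R. For the 7 others it ran from 0.618 to 2.24 times. By reads the 3 genes ranked 202, 91 and 106. The cause of their ratio was not tested, and their place among the highest genes rests on FPKM and not on reads.

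Ranked by implied reads, which are not scaled by length, the order was different and 3 genes were in both lists of 10. FBgn0232163, on the dot chromosome from 1166615 to 1178524, had 157314 reads, 2.71% of the library (95% exact binomial interval 2.69% to 2.72%), at an FPKM of 1691, which ranked 168. A gene on 3L from 14177979 to 14181206 had 151928 reads (2.61%, 2.601% to 2.63%) at an FPKM of 4713. The next in rank were neighbors on 3L, at 14324155 to 14325182 with 90901 reads (1.56%) and at 14325781 to 14326182 with 64294 reads (1.11%). Of the 10 genes with the most reads 6 were on 3L and 2 on the dot chromosome.

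Reads were concentrated in few genes. It took 302 genes, 1.97% of all, to hold 50% of the reads, and 3984 genes, 25.97% of all, to hold 90%. The 10 genes with the most reads held 13.1%, the top 100 held 34.8% and the top 1000 held 68.1%. The 4318 genes below FPKM 1 together held 0.273%.

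The shape of this curve was close to that of D. simulans, where 314 genes held 50% of the reads. It was steeper than in D. melanogaster (380 genes) and D. pseudoobscura (506 genes). Rows without status OK have no solved reads and counted as 0 reads, which makes the D. melanogaster curve less firm. Rows of status OK were 15403 of 15494 in D. melanogaster, 14431 of 14432 in D. simulans and 15142 of 15146 in D. pseudoobscura. The single gene with the most reads held 2.71%, against 1.35% for D. melanogaster, 7.34% for D. simulans and 6.77% for D. pseudoobscura. The D. yakuba library was therefore concentrated without a single dominant gene. By FPKM the 10 highest genes made up 25.6% of the summed FPKM but 4.33% of the reads.

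**Figure D3:**
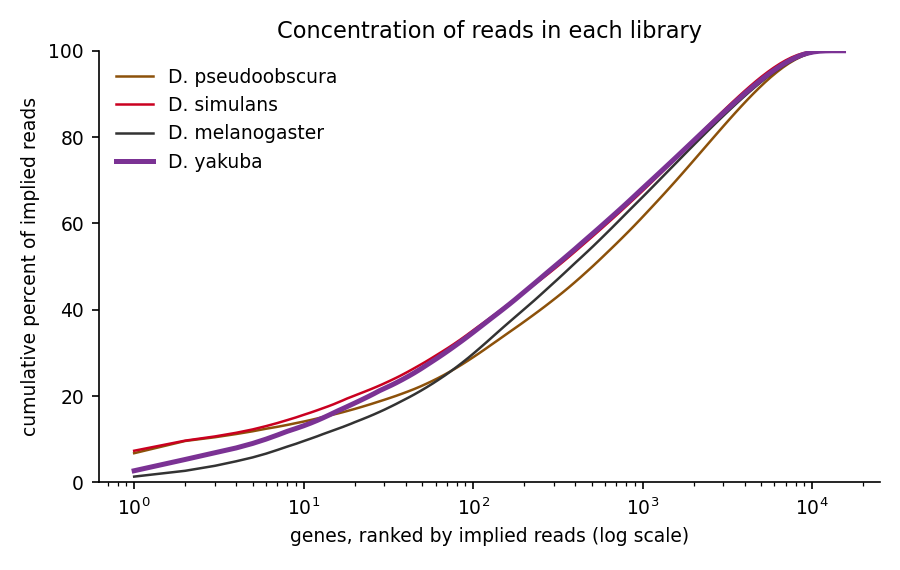
Cumulative percent of implied reads (vertical axis) over genes ranked by their reads (horizontal axis, log scale), with 1 line for each of the 4 libraries and D. yakuba as the thick line. The D. yakuba line starts at 2.71% for its first gene and reaches 50% at 302 genes, close to the D. simulans line from there on.

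The large chromosome arms carried the genes at FPKM 0 in similar shares, and the dot chromosome and the heterochromatic sequences did not. Against 14.2% over all genes, 13.8% of 2905 genes were at 0 on 2L, 14.4% of 2985 on 2R, 15.4% of 3044 on 3L, 13.0% of 3819 on 3R and 14.6% of 2462 on X. On the dot chromosome 3 of 84 genes were at 0 (3.57%). Among genes with a locus of 500 bp or more the arms ran from 7.06% on 2R to 9.84% on 3L, with X at 9.51%, and none of the 81 such genes of the dot chromosome was at 0. The dot chromosome was thus below every large arm with short loci included and without them.

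Genes on X had lower levels than genes on the autosome arms, although about as many were at 0. The median FPKM was 3.69 on X and 5.65 over the 4 large autosome arms, a ratio of 0.652, and the ratio was 0.592 in D. melanogaster and 0.625 in D. simulans. At FPKM 100 or more stood 165 of 2462 genes on X (6.70%), against 10.3% over all genes. At 1000 or more stood 27 (1.10%). The X held 16.0% of the genes and 9.83% of the reads. Whether the number of X chromosomes bears on these values was not tested.

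Among the large arms, 2R had the most genes at FPKM 1000 or more, with 63 (2.11%), followed by 2L with 50 (1.72%), 3R with 49 (1.28%) and 3L with 47 (1.54%). By reads the order differed, with 24.4% of the library on 3L for 19.8% of the genes, while 2R held 18.5% for 19.5%. Part of the reads of 3L lay in 2 of its windows, though most lay elsewhere on the arm. The 1 Mb window that starts at 14 Mb held 5.99% of all reads of the library and the one that starts at 18 Mb held 3.52%, against a median of 0.567% over 117 windows of the large arms with 20 or more genes of 500 bp or more.

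Windows also differed in genes at 0. Over the same 117 windows the percent at 0 among genes of 500 bp or more had a median of 7.96% and ran from 1.32% to 24.1%, the highest being the first 1 Mb of 2R with 7 of 29 genes. Windows near the ends of 2L, 2R and 3L held fewer than 20 such genes and are outside this range. From 21 to 22 Mb on 2L 10 of 19 genes were at 0, beyond 24 Mb on 3L 4 of 5, and beyond 21 Mb on 2R 0 of 6. After the first window of 2R, the next shares in rank among the 117 were 20.2% from 21 to 22 Mb on 3L, with 25 of 124 genes, and 18.6% from 10 to 11 Mb on 3L, with 11 of 59.

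**Figure D4:**
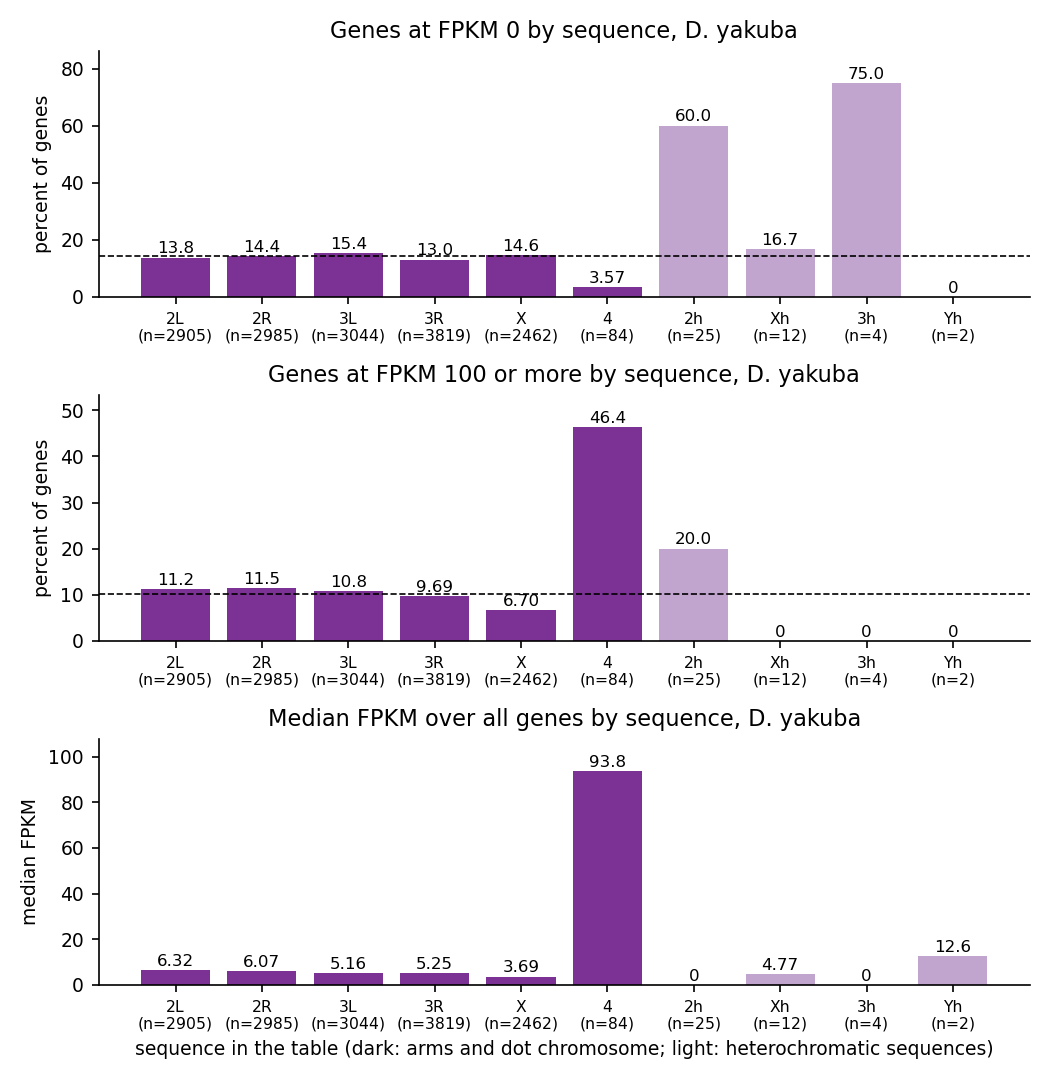
Percent of genes at FPKM 0 (top), percent at FPKM 100 or more (middle) and median FPKM (bottom) for the 10 sequences of the D. yakuba table, with the number of genes under each name and a dashed line at the percent over all genes. The dot chromosome (4) has 3.57% at 0, 46.4% at FPKM 100 or more and a median of 93.8, and 2h has 60.0% at 0.

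The dot chromosome stood out as the sequence with the highest levels. Its 84 genes had a median FPKM of 93.8, with quartiles of 17.4 and 244.1, against a median of 5.65 on the large autosome arms. At FPKM 100 or more stood 39 of its genes (46.4%, against 10.3% over all genes), a further 29 lay from 10 to below 100, 12 from 1 to below 10 and 4 below 1. The median gene had 1785 reads, against 68.0 on the large autosome arms, and its FPKM bounds lay a median of 4.37% away.

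The ratio of the medians was 16.6 in D. yakuba, 5.31 in D. melanogaster and 4.63 in D. simulans. Dot chromosome genes have long loci, with a median of 6484 bp, so genes of 2000 bp or more were also compared, a choice made after seeing the data. Among these the ratio was 22.7 in D. yakuba, from medians of 98.4 and 4.35, against 6.51 in D. melanogaster and 5.64 in D. simulans. The ratio was thus larger in D. yakuba in both comparisons, with 1 library each and genes that were not matched between the species.

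With 0.548% of the genes the dot chromosome held 7.70% of the reads of the library, against 3.29% in D. melanogaster and 1.85% in D. simulans. Much of this came from FBgn0232163, with its 157314 reads, and from a gene from 54368 to 55262 with 58145 reads, the highest of the chromosome by FPKM at 9698. Together they held 48.1% of its reads. Without them the remaining 82 genes held 4.00% of the library. A gene from 1227996 to 1228797 was the other one at FPKM 1000 or more, at 1241.

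Genes at 0 on the dot chromosome were short, while its low genes above 0 were not all so. Its 3 genes at 0 had spans of 73, 73 and 315 bp, and the next, from 182268 to 183224, had an FPKM of 0.165 from 1 read. The gene that follows in rank, from 1049311 to 1050143, had 1.48 from 8 reads. The 12 genes from 1 to below 10 also included long loci, such as one of 48569 bp at 2.22 (810259 to 858827). High and low genes were interspersed: 5 runs of neighbors at FPKM 100 or more lay on this chromosome, among them 5 genes from 361384 to 433204 at FPKM 720.9, 533.8, 293.9, 385.9 and 110.0.

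Sequences outside the arms were few and mostly low. The table has no sequence called random and none called U, and the genes outside the arms and the dot chromosome were the 43 on 2h, 3h, Xh and Yh, names that mark heterochromatin assigned to a chromosome. Heterochromatin is the compact, repeat-rich DNA around centromeres and along the Y. Of these 43 genes 20 were at 0 (46.5%, 95% exact binomial interval 31.2% to 62.3%), against 2160 of 15299 on the placed sequences (14.1%). This interval treats the genes as independent of each other. Genes at 0 lay in runs here, such as 5 neighbors on 2h from 762759 to 884931, so the interval is too narrow. At FPKM 1 or more stood 17 of the 43 genes (39.5%, against 71.9% over all genes).

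The difference was as large among loci of 500 to 5000 bp, where 12 of 27 genes were at 0 on the heterochromatic sequences (44.4%) and 953 of 10430 on the placed ones (9.14%). On the D. melanogaster sequences named Het, the class closest by name, 11 of 101 genes were at 0 (10.9%), beside 10.9% over all D. melanogaster genes. On sequences named as heterochromatin the share was thus above that of the whole table in D. yakuba and close to it in D. melanogaster. On the D. melanogaster sequence U, a name absent from the D. yakuba table, 92 of 151 genes were at 0 (60.9%). Over all D. melanogaster sequences outside the arms and the dot chromosome, mitochondrial genes included, it was 128 of 289 (44.3%), near the D. yakuba share. The contrast thus depends on which sequences are compared, in 1 library each and with annotations that were not matched. The share of reads that map to repeats is not known here, and its part in these values was not tested.

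The heterochromatic sequences differed among themselves. On 2h 15 of 25 genes were at 0, and 3 of 4 on 3h, where the remaining gene had 1 read. On Xh 2 of 12 were at 0 and 8 were at FPKM 1 or more, the highest at 61.0 from 464.0 reads (129158 to 131375). On Yh both genes were detected, at FPKM 7.71 from 256.0 reads (36841 to 105912) and 17.4 from 126.0 reads (109980 to 110921).

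On 2h a few genes stood far above the rest. The highest, from 125447 to 125875, had an FPKM of 3482 from 2870 reads and was the only gene at 1000 or more outside the arms. It was followed by 308.7 (240887 to 245495, 7814 reads), 190.2 (157264 to 158861, 2382 reads), 157.5 (692393 to 698368, 1911 reads) and 103.5 (386042 to 397619, 482.0 reads). All 5 heterochromatic genes at FPKM 100 or more were thus on 2h, beside 15 genes at 0. The 43 genes held 0.294% of the reads for 0.280% of the genes, so their share of reads was close to their share of genes, and 45.7% of these reads belonged to the gene at 308.7.

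High genes often had high neighbors. Of 1574 genes at FPKM 100 or more with a next gene on the same sequence, 296 had a next gene at 100 or more as well (18.8%), against 10.3% over all genes. Among neighbors whose loci do not overlap it was 279 of 1516 (18.4%). For genes at 1000 or more it was 17 of 240 (7.08%, against 1.56%). The share at 100 or more was 16.4% for D. melanogaster (9.27% over all its genes), 20.5% for D. simulans (10.7%) and 15.3% for D. pseudoobscura (8.6%), so D. yakuba lay within their range.

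Runs of 3 or more neighbors at FPKM 100 or more numbered 39 and held 150 genes, which is 9.52% of the genes at that level, and 16.3% of the reads of the library. Of these runs 25 had 3 genes, 8 had 4, 3 had 5, and 3 were longer. Their median length was 6.96 kb, from 1.12 to 71.8 kb. On 2L lay 14 runs, on 2R 7, on 3L, 3R and the dot chromosome 5 each, and on X 3. The dot chromosome, with 84 genes, thus had as many runs as 3R with 3819. At FPKM 100 or more stood 46.4% of the dot chromosome genes and 9.69% of those on 3R. Runs are more frequent where that share is higher, so these counts alone do not measure clustering. Runs rest on the threshold: they numbered 120 at FPKM 50 and 16 at 200.

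The longest run lay on 3L from 18191628 to 18205064, 11 genes in 13.4 kb without overlapping loci. In order along the arm their FPKM was 49586, 38309, 6454, 21072, 156.8, 17237, 13506, 4825, 5440, 161.3 and 239.6. The highest values stood at the end with the lower coordinates, and 8 of the 11 genes were at 1000 or more. Loci were compact, with a median span of 424 bp and a median distance of 651 bp.

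This run alone held 177225 reads, 3.05% of the library, with 49633 on its first gene. The genes next to the run were below 100 by the rule that defines a run, so only their levels are described. The gene 134 bp before the run had an FPKM of 4.63 from 1 read and the one before that 0.384 from 1 read. The next gene after the run, at a distance of 16732 bp, was at 0.

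The run with the highest median, 10809, was a group of 3 on 3L from 14324155 to 14328644. Its genes stood at FPKM 10809 (90901 reads), 50915 (64294 reads) and 1938 (19935 reads), and together they held 3.01% of the library. Between them lay 598 and 1100 bp, and the gene with the most reads was not the one with the highest FPKM. The flanking genes lay farther away and were lower, at 24.6 (1464 bp before) and 7.76 (33344 bp after). The gene with the second most reads of the library, at FPKM 4713, lies on the same arm about 143 kb before this group.

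A run of 4 genes on 2R from 19924850 to 19931806 stood at FPKM 10621, 2809, 60491 and 870.8, with 32795, 9345, 8253 and 2864 reads. Its gene at 60491 is one of the 3 whose FPKM was high for its reads, and by reads the first gene of the run led. The flanking genes were at 1.79 and 17.4. The levels within a run were therefore far from equal, spanning 69.5-fold here, 26.3-fold in the group of 3 and 316-fold in the run of 11.

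**Figure D5:**
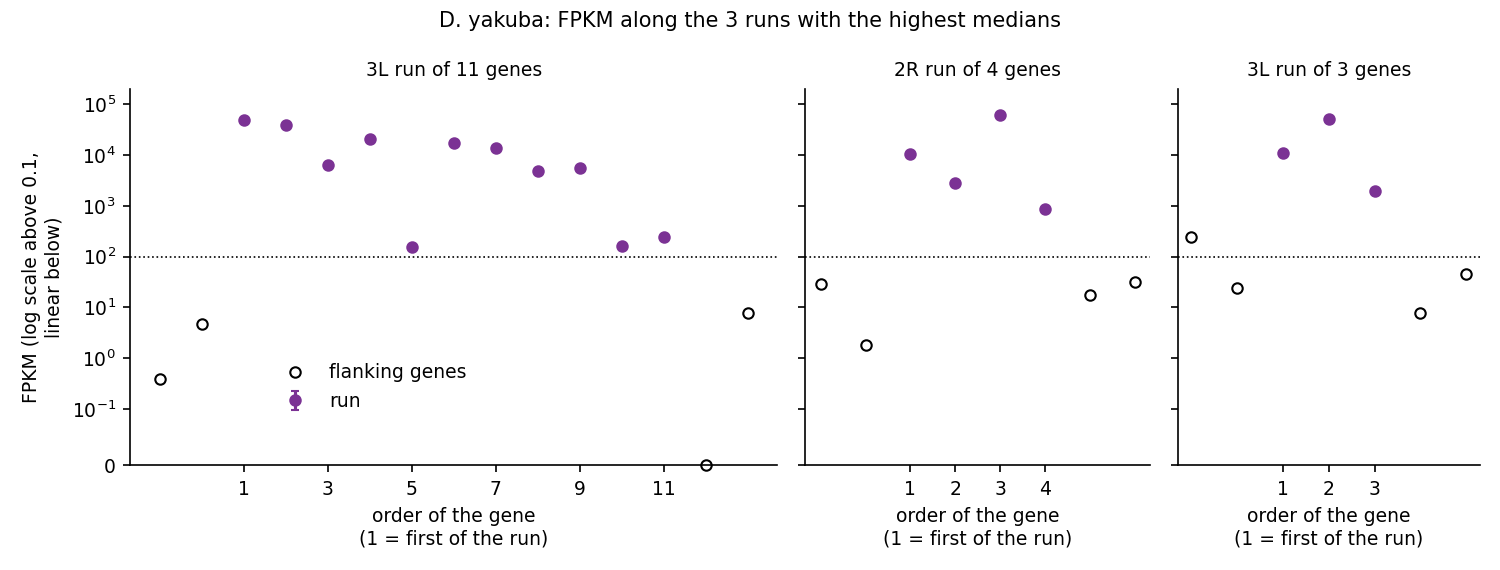
FPKM (vertical axis, log scale above 0.1 and linear below) of the genes of the 3 D. yakuba runs with the highest medians, in their order along the arm (horizontal axis), with Cufflinks bounds as error bars, mostly smaller than the points. Filled points are members, open points the 2 genes on each side, and the dotted line marks FPKM 100. Members lie between 156.8 and 60491, and 11 of the 12 flanking genes lie below 100. By the rule for runs, members lie at 100 or more and the gene next to each end of a run lies below it.

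Other runs were of a different kind. The second longest, 10 genes on 3R from 17381687 to 17389713, held 8 short loci, the shortest of 132 bp, inside a locus of 3203 bp. The enclosing gene had an FPKM of 3172 from 35525 reads, and the 8 short ones had 200.3 to 574.4 from 19 to 53 reads each. Next in length, 7 genes on 2R from 10438997 to 10440528 with spans of 71 to 91 bp, rested on 33 reads in all, and 4 of its genes had 1 or 2 reads and a lower bound of 0. Both runs were thus made up mostly of very short loci, nested ones in the first and ones with few reads in the second. Without genes under 500 bp, a choice made after seeing the data, 21 runs at FPKM 100 or more were found, and the longest had 5 genes. Among these genes the next-gene share at 100 or more was 14.7%, against 7.86% over all genes of this span.

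Pairs and longer runs at FPKM 1000 or more numbered 11. The run of 11 on 3L held 2 of them, of 4 genes each, with medians of 29690 and 9473 on either side of its gene at 156.8. Next came the groups of 3 on 3L and 2R. The other 7 were pairs, led by 2 genes on 3R from 5109877 to 5112186 at FPKM 4974 and 5123, each of 193 bp, and 2 on 3L from 2538833 to 2542154 at 1475 and 5084. Genes of a pair could be close in level, as on X from 10638977 to 10640986, at 1339 and 1307.

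Genes at FPKM 0 also lay together. Of 2177 with a next gene, 815 had a next gene at 0 (37.4%, against 14.2% over all genes), and 179 runs of 3 or more held 750 genes, 34.4% of those at 0. The longest had 26 genes, on 2R from 13551174 to 13566167, with spans of 55 to 119 bp. The next had 16 genes over 93.2 kb, on X from 8191400 to 8284628, of which 13 had spans of 100 bp or less and 1 was a locus of 70111 bp, and 10 of the 16 overlapped another. It was followed by 13 genes on 2L from 20418147 to 20437990 with spans of 73 to 74 bp. In the very short genes the depth sets little limit on the level, as shown by the FPKM of 3 reads in such genes.

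Runs of longer genes at FPKM 0 were found too. Among genes of 500 bp or more 276 of 1073 at 0 had a next such gene at 0 (25.7%, against 8.45% of all genes of this span), in 67 runs of 3 or more. The longest had 6 genes, on 2L from 1759482 to 1777757 and from 2225934 to 2236190, and on 2R from 20344133 to 20350207. On 2L from 21087241 to 21407538 a run of 5 stretched over 320.3 kb, the part of the arm whose 1 Mb window had 10 of 19 genes at 0. The next-gene share was 38.4% for D. melanogaster (6.07% of all its genes of this span), 23.0% for D. simulans (7.51%) and 18.5% for D. pseudoobscura (4.61%). Divided by the share over all genes it was 3.04 for D. yakuba, the lowest of the 4 and close to the 3.06 of D. simulans. In D. melanogaster 1 such run alone held 90 genes of 500 bp or more.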

How the data were processed

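Whole-animal white prepupa RNA was sequenced in 4 libraries, 1 per species. The FPKM values and their bounds were deposited by the authors, who trimmed single-end reads, aligned them with TopHat and estimated FPKM per gene with Cufflinks. Bowtie, SAMtools and the dm3 build are listed as well in the submitters' notes on processing. Not given in the sources used here were versions, strand and the D. yakuba build.

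All 15342 D. yakuba rows had status OK and none was filtered. Reads per gene were solved from the bounds, taking the upper one where the lower was 0. A check on simulated data built the bounds by the same formula, so it could not test whether Cufflinks bounds follow it. File starts were raised by 1 to count from 1: on D. melanogaster 2L 1960 of 2860 starts then equalled the reference annotation, against 11 as written. Genes on 2h, 3h, Xh and Yh formed the heterochromatic class. A run was 3 or more consecutive genes, ordered by start, at FPKM 100 or more (2 or more at 1000). Loci sharing a base were called overlapping. Windows were 1 Mb.

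Genes described singly were the 10 highest by FPKM and by reads, those next to FPKM 1000, the highest of each sequence, and members of the longest run and of the run with the highest median. Other genes named were chosen after their values were seen. The members, thresholds and lists were chosen with earlier results of these data known. Share intervals are exact binomial at 95%, and a count of 0 allows up to 3 reads. With 1 library per species nothing was tested. Alternatives changed thresholds, pseudocount, span and overlap. Scripts ran in Python 3.11.15 with pandas 2.3.3, numpy 2.4.6 and scipy 1.17.1, and plots were drawn with matplotlib 3.10.9.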

Additional observations from a re-analysis of the deposited data

How the results depend on the processing

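Of 51 values recomputed under an alternative, 35 moved and 16 did not. A count of genes or runs was said to move when it changed by over 1.5 times. A share or a median was said to move when it left the 95% interval of its first value. That interval is wider where genes are few, and some alternatives change the quantity itself. The tally therefore does not measure how firm the values are. By that rule the 11024 genes at FPKM 1 or more did not move, though a minimum of 0.1 gave 12923 and one of 5 gave 7797, nor did the genes at 0 with FPKM under 0.1 included (2419). Counting genes with 3 reads or fewer as 0 gave 3558 in place of 2180. Thresholds of 500 and 2000 gave 434 and 140 genes in place of 240 at FPKM 1000 or more. The 10 highest genes by FPKM held 4.33% of reads, the top 10 by reads 13.1%, and 25.6% of summed FPKM belonged to the former. With FPKM under 0.1 counted as 0, the share was 16.5% on X, 15.6% on the autosome arms and 15.7% on all placed sequences, and it was 13.5% on the autosome arms without overlapping loci. Among loci of 500 to 5000 bp 9.14% of placed genes were at 0. The median log2(FPKM + 1) on X was 2.23, and it was 1.92 with a pseudocount of 0.1 and 3.09 among genes at FPKM 1 or more. Runs at FPKM 100 or more numbered 39, against 120 at FPKM 50, 16 at FPKM 200 and 86 with 1 lower gene allowed inside.

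Further alternatives were chosen after seeing the data. Among loci of 500 bp or more, 1076 genes were at 0 and 111 at FPKM 1000 or more, the share at 0 was 9.51% on X, 8.21% on the autosome arms and 8.37% on placed sequences, 21 runs were found, and 14.7% of genes at FPKM 100 or more had such a next gene, against 7.86% of all genes of this span at that level. Among loci of 2000 bp or more the median log2(FPKM + 1) on X was 2.02. The dot chromosome kept a median log2 value of 6.55 to 6.64 in all its alternatives, and the heterochromatic share at 0 ran from 38.2% to 48.8%.

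Keeping rows of status OK removed none, and leaving out sequences named random gave no value because no sequence has that name. No paired analysis was possible because each species has 1 library. Depth limits genes with few reads, and not short loci alone. Among loci of 500 bp or more, thinning to the depth of D. yakuba raised the expected share at 0 as well. It rose from 6.07% to 8.49% in D. melanogaster, from 7.51% to 9.16% in D. simulans and from 4.61% to 6.63% in D. pseudoobscura. The first value of each pair covers all rows and the second covers rows of status OK. In D. melanogaster 15403 of 15494 rows had that status, so its values differ in rows as well as in depth.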
